A study of Mus musculus with 8 samples.

Results

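The data are single-cell RNA counts of endothelial cells sorted by a YFP reporter. The barcodes described here carried adipocyte RNA and had no count of 3 chosen genes of the sorted cell type, though other endothelial genes could be present. A barcode was taken when it held 500 or more UMIs from 300 or more genes, with no more than 10% of them mitochondrial, when at least 3 of the 6 adipocyte genes Adipoq, Cfd, Retn, Cidec, Car3 and Adig had a UMI, and when the endothelial genes Pecam1, Cdh5 and Cldn5 and the leukocyte gene Ptprc all had 0. A UMI is the molecular tag that marks 1 captured RNA molecule. The rule found 537 of 23970 passing barcodes (2.24%). Because the rule used these 10 genes, their levels and every comparison of these barcodes with the others are a description with no test.

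Male mice of the genotype ROSA26-eYFP+/+ Cdh5-CreERT2+ carried a reporter that tamoxifen switches on in cells with an active Cdh5 promoter, which drives Cre in endothelium. All groups ate tamoxifen food from 6 weeks of age for 2 weeks and then, from 8 weeks of age, were kept for 12 to 13 weeks on food with 5.8% fat (normal chow) or with 60% fat (high fat diet). Mesentery or epididymal fat of 6 mice was pooled for each library, digested with Actinomycin D present, sorted and loaded for about 5000 cells. The 4 groups (mesentery or adipose tissue, each on chow or high fat diet) have 2 libraries each, from an experiment done in full on 2 occasions, here called runs A and B. The label of every library is endothelial cells, so the barcodes described here carry the markers of another cell type than their label.

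White adipocytes store triglyceride in a single large droplet coated by perilipins and release it by lipolysis through adipose triglyceride lipase and hormone-sensitive lipase. They also make fatty acids from glucose, take up fatty acids that lipoprotein lipase frees from circulating lipoproteins, and secrete hormones such as adiponectin and leptin. PPARgamma and C/EBPalpha are the transcription factors that hold this programme in place.

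The 6 genes of the rule lie on 6 chromosomes of the mouse genome (GRCm38, GENCODE gene models). Adipoq (chr16:23146536-23158028, plus strand) encodes the hormone adiponectin. Cfd (chr10:79890853-79892655, plus strand) encodes adipsin, a serine protease of the complement system that adipocytes secrete. Retn (chr8:3655770-3660110, plus strand) encodes the secreted protein resistin. Cidec (chr6:113424634-113435760, minus strand) encodes a droplet protein that helps droplets fuse. Car3 (chr3:14863512-14872523, plus strand) encodes carbonic anhydrase 3, which is abundant in fat and muscle. Adig (chr2:158502612-158508198, plus strand) encodes adipogenin.

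The promoters of 5 genes of the rule and the results are shown. Plin1 is a droplet gene outside the rule that was high in these barcodes in both tissues. Cidec and Adipoq are a droplet and a hormone gene that the rule used, so their high levels here are not a finding. Fasn and Acly are fatty acid synthesis genes whose levels differed between the tissues. Each runs from 250 bases before to 50 bases after a RefSeq start on GRCm38.p6. In the first 3, capitals mark matches to the C/EBP motif TTGCNNAA. In Fasn and Acly they mark the CCAAT motif, searched as CCAAT. Both strands were searched.
Plin1, chr7:79732727-79733026, minus strand: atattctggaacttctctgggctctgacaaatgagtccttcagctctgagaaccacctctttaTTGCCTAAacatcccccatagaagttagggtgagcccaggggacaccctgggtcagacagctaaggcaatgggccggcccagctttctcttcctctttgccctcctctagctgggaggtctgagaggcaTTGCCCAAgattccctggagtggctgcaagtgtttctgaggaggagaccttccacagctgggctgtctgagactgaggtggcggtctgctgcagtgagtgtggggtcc
Cidec, chr6:113434715-113435014, minus strand: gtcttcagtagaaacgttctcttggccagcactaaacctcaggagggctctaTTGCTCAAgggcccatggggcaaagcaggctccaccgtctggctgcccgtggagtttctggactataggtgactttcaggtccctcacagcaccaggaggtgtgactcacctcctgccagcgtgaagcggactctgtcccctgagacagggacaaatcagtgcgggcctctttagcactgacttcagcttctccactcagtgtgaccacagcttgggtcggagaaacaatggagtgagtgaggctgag
Adipoq, chr16:23146286-23146585, plus strand: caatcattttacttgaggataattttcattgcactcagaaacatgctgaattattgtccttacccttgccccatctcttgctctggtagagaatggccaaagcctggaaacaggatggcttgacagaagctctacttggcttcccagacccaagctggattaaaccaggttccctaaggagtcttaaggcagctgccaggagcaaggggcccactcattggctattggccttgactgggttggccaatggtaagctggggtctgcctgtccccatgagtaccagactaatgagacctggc
Fasn, chr11:120824498-120824797, minus strand: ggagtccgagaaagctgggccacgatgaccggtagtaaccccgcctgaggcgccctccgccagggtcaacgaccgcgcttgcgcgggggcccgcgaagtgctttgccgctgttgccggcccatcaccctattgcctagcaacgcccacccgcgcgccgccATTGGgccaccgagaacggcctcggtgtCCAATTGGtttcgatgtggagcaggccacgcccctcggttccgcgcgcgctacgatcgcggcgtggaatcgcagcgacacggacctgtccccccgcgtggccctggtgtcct
Acly, chr11:100527951-100528250, minus strand: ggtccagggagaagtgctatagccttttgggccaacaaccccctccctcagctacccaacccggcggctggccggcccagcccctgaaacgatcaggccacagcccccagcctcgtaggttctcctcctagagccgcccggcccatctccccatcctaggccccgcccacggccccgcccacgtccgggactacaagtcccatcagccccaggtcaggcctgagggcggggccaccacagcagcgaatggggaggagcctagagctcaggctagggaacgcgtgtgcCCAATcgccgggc
The C/EBP letters occurred 2 times in the Plin1 window, 1 time in the shown Cidec window, which is 1 of 2 listed starts, and 0 times in that of Adipoq. The Cidec start was chosen for having the most matches. Of the 6 windows found for genes of the rule, 1 held these letters. They occurred in 10.8% of all 32851 windows of this length. CCAAT occurred 3 times in the Fasn window, with 2 matches overlapping on opposite strands, and 1 time in that of Acly, against 37.4% of all windows with a match. The Adipoq window holds 3 CCAAT matches as well, which are not in capitals. The C/EBP letters were in 1 of 18 windows of the droplet and lipolysis genes, 1 of 20 of the fatty acid and triglyceride synthesis genes, which matched 14 of 19 listed genes, and 4 of 12 of the secreted genes. CCAAT was in 3 of 18 droplet, 10 of 20 synthesis, 10 of 14 amino acid and other metabolism, 8 of 17 uptake and signalling and 7 of 11 stress windows. A match is a description of the letters and not a binding site.

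The adipocyte-like barcodes came almost entirely from the chow libraries of run B. Mesentery on chow in run B had 305 of them, 5.95% of 5129 passing barcodes (exact 95% binomial interval 5.31 to 6.63%). Adipose on chow in run B had 228, 4.04% of 5646 (3.54 to 4.58%). Mesentery on high fat diet in run B had 4, 0.134% of 2990 (0.0365 to 0.342%). The remaining 5 libraries had 0: adipose on high fat diet in run B among 4406 barcodes, which allows up to 0.0681%, and the 4 libraries of run A among 1567, 1917, 991 and 1324 barcodes. The run A limits are 0.191% for mesentery on chow, 0.156% for adipose on chow, 0.303% for mesentery on high fat diet and 0.227% for adipose on high fat diet. The limits for 0 are 3 counts over the number of barcodes, which is lower than the upper end of the exact 95% interval. That end is 0.0837% for adipose on high fat diet in run B. In run A it runs from 0.192% (adipose on chow) to 0.372% (mesentery on high fat diet). These intervals and limits cover counting error only.

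**Figure D1:**
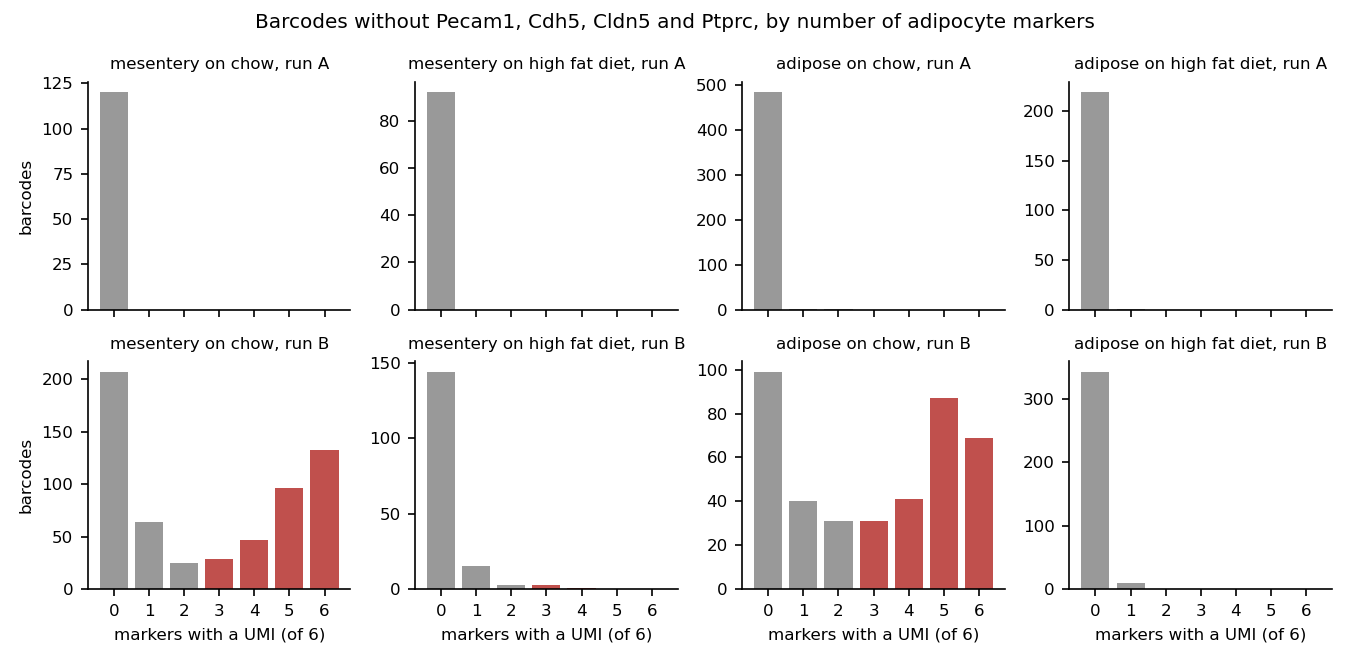
Number of passing barcodes (y axis, a separate scale in each panel) without a UMI of Pecam1, Cdh5, Cldn5 and Ptprc, by how many of the 6 adipocyte markers had a UMI (x axis), in each of the 8 libraries; red bars are the barcodes the rule took. Red bars are seen in the chow libraries of run B, with 133 mesentery and 69 adipose barcodes holding all 6 markers.

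On chow, the 2 libraries of a group thus stood on different sides: 0 and 5.95% in mesentery, 0 and 4.04% in adipose. The mean share was 2.97% ± 4.2 (SD, n = 2 libraries) in mesentery and 2.02% ± 2.86 (SD, n = 2) in adipose on chow, 0.0669% ± 0.0946 (SD, n = 2) in mesentery on high fat diet and 0 in adipose on high fat diet. The two-sided exact permutation p was 1 in each of the 4 comparisons (diet in each tissue, tissue on each diet). Adjusted over the 4 it was also 1, and 2 libraries against 2 cannot go below 0.333. Where only 1 library held adipocyte-like barcodes, as between the adipose groups and between the high fat groups, every relabelling gives the same absolute difference. The test also left the libraries unpaired by run, so it cannot decide whether the shares differ by diet or tissue. In run B the share was higher on chow in both tissues and higher in mesentery on both diets, while every run A library had 0. Leaving out mesentery on chow in run B turned the difference between tissues on chow from 0.954 to -2.02 percentage points, and leaving out adipose on chow in run A turned it to -1.065 percentage points. The runs differ in depth and in software version as well: passing barcodes of run A had library medians of 1447 to 3438 UMIs and those of run B 3416 to 4698.5.

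Barcodes with the same adipocyte markers and at least 1 endothelial gene, and no Ptprc, were also found mostly in the chow libraries of run B and were more frequent there, with adipose above mesentery. There were 3181 in adipose on chow in run B (56.3% of passing barcodes), 1380 in mesentery on chow in run B (26.9%), 107 in mesentery and 25 in adipose on high fat diet in run B, and 0 to 7 in the libraries of run A. In the chow libraries of run B, the adipocyte-like barcodes were 50.7% (mesentery) and 57.3% (adipose) of all barcodes that lacked the 4 excluded genes. No barcode sequence was an adipocyte-like barcode in both of these libraries, and 1 was also deposited in another library of run B.

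Counts of markers per barcode were spread over the whole range and had a low point next to the threshold. In mesentery on chow in run B, 207 barcodes without the 4 excluded genes had 0 of the 6 markers, 64 had 1, 25 had 2, 29 had 3, 47 had 4, 96 had 5 and 133 had 6. In adipose on chow in run B the numbers were 99, 40, 31, 31, 41, 87 and 69. Just outside the threshold, barcodes with 2 markers had a median of 932 UMIs in mesentery and 869 in adipose. Just inside it, those with 3 markers had 724 and 755, and those with 6 had 1855 and 1717. When every barcode of these libraries was thinned to 500 UMIs, 285 of the 305 (93.4%) and 202 of the 228 (88.6%) still had at least 3 markers.

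Car3 and Cfd made up most of the marker RNA in both tissues. Levels are CPM, the usual per-library scaling of a count to a fixed total, from UMIs summed over the adipocyte-like barcodes of a library, and are not divided by transcript length. Cfd was at 22684 (mesentery) and 17309 CPM (adipose), with a UMI in 304 of 305 and 227 of 228 barcodes. Car3 was at 21342 and 23505 CPM, in 304 of 305 and 228 of 228 barcodes. Retn was at 4191 and 3663 CPM, and Adipoq at 2734 and 2484 CPM. Cidec was at 1442 and 1304 CPM and Adig, the marker missed most often, at 904 and 652 CPM, in 62.3% and 49.6% of barcodes. Together the 6 genes took 5.33% of the UMIs in mesentery and 4.89% in adipose.

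The adipocyte-like barcodes were shallow, rich in mitochondrial RNA and mostly near 0 for Malat1, a long RNA that stays in the nucleus. Their median was 1179 UMIs in mesentery and 1082.5 in adipose, against 3788.5 and 4108.5 for barcodes with at least 2 of the 3 endothelial genes and fewer than 3 adipocyte markers, and 4039.5 and 5975 for those with markers of both kinds. Mitochondrial UMIs took a median of 5.18% and 5.28%, against 2.47% and 2.64% in the endothelial barcodes. Malat1 took a median of 0.0908% and 0.151% of UMIs, against 4.66% and 3.95% in the endothelial barcodes. In 102 of 305 mesentery barcodes (33.4%) and 76 of 228 adipose barcodes (33.3%) Malat1 had 0 UMIs, and it reached at least 1% of UMIs in 27 (8.85%) and 28 (12.3%). Of the endothelial barcodes, 90% and 86.5% reached that level. Summed over the adipocyte-like barcodes, Malat1 was still at 27541 and 23841 CPM. Barcodes with neither set of markers were as shallow (medians of 1090 and 1119 UMIs), and 40.2% and 32.9% of them had Malat1 at 1% or more. Malat1 had 0 UMIs in 32.8% and 28.2% of them, and its median was 0.258% and 0.332% of UMIs. A share of barcodes without Malat1 is thus not particular to the adipocyte-like ones.

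**Figure D2:**
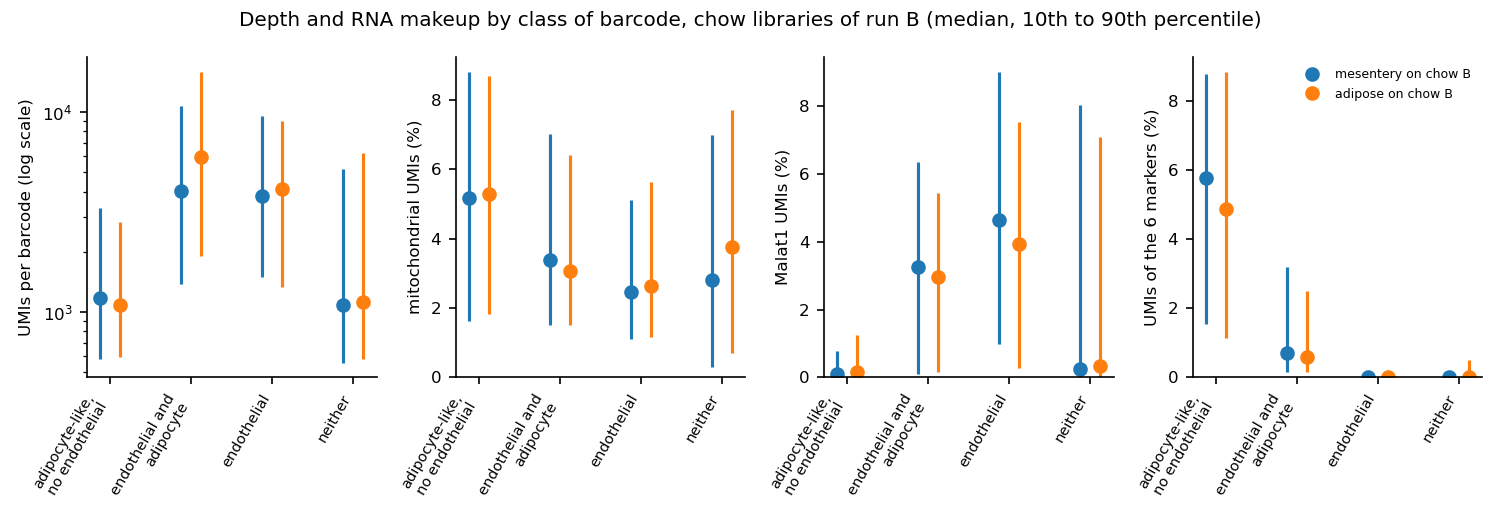
UMIs per barcode (log axis) and the percent of UMIs from mitochondrial genes, from Malat1 and from the 6 markers in 4 classes of barcodes of the chow libraries of run B; points are medians and lines run from the 10th to the 90th percentile over barcodes. The adipocyte-like barcodes have medians of 1179 and 1082.5 UMIs, over 5% mitochondrial UMIs and under 0.2% Malat1.

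At 500 UMIs each, the median barcode had 328 genes in mesentery and 334 in adipose, against 367 and 368 for the endothelial barcodes. Barcodes with neither set of markers had 331 and 344, and those with Ptprc, no endothelial gene and fewer than 3 markers had 318 and 346. Whether an adipocyte-like barcode holds a whole cell, part of one or free RNA was not tested. Scrublet, a caller of barcodes that hold 2 cells, marked 2 of the 537.

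Among barcodes with at least 3 markers, the marker RNA had nearly the same makeup with and without endothelial genes of the same library. In mesentery on chow in run B, Cfd was 42.6% of the UMIs of the 6 markers in the adipocyte-like barcodes, 42.7% in those with markers of both kinds and 42.7% over all barcodes with at least 2 endothelial genes. In adipose on chow in run B these shares were 35.4%, 32.1% and 32.3%. Car3 was 40.04%, 39.5% and 39.7% in mesentery and 48.1%, 49.7% and 49.8% in adipose. At least 3 markers were found in 32.0% of the endothelial barcodes of mesentery and 62.2% of those of adipose (11.7% and 19.2% after thinning to 500 UMIs, with unthinned medians of 4022 and 5312 UMIs). In leukocyte barcodes, defined by Ptprc without the 3 endothelial genes, they were found in 3 of 137 (2.19%, median 3720 UMIs) and in 0 of 23 (which allows up to 13.0%, median 4475 UMIs). The markers summed to 53296 and 48917 CPM in the adipocyte-like barcodes and to 230 and 106 CPM in the leukocyte barcodes. The rule asked for at least 3 markers, so this order was set in advance and nothing is read from it.

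**Figure D3:**
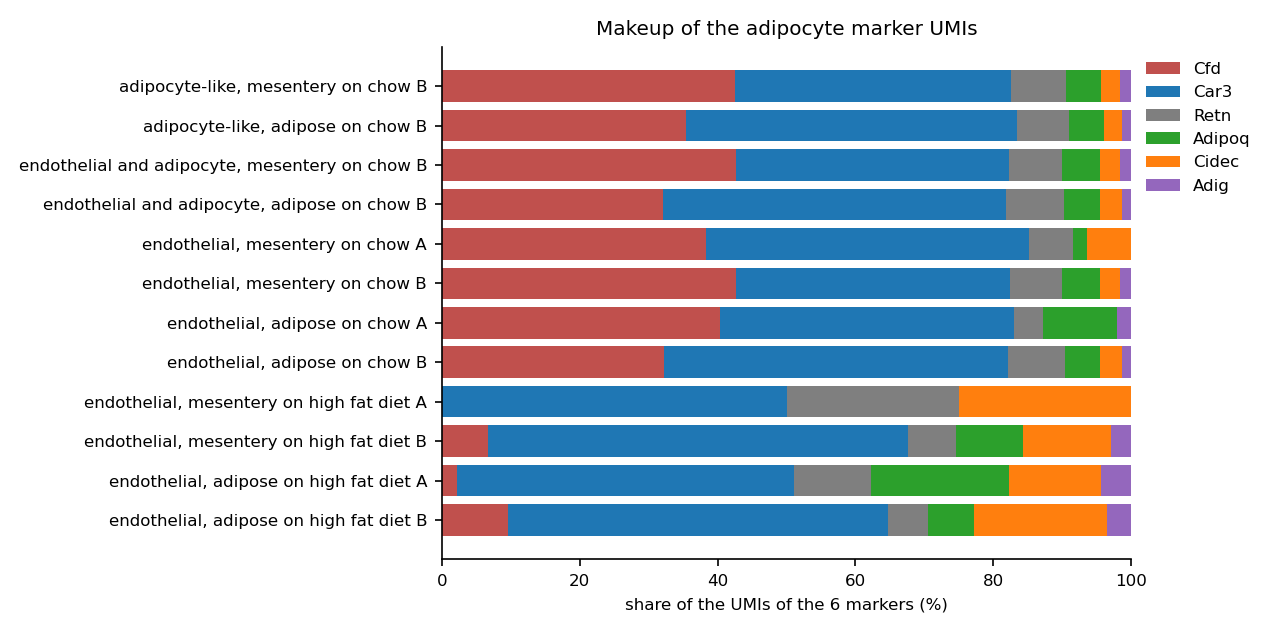
Share of each of the 6 markers in their summed UMIs (x axis, percent), in the adipocyte-like barcodes and those with both kinds of markers of the chow libraries of run B, and over all barcodes with at least 2 endothelial genes of each of the 8 libraries. Cfd (red) takes 32.3 to 42.7% in the endothelial barcodes of the 4 chow libraries and 0 to 9.59% in those of the 4 high fat diet libraries, 1 of which has only 4 marker UMIs.

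The shares of Cfd and Cidec in the marker RNA did not overlap between the diets, in a design too small to reach the 0.05 threshold. Over all barcodes with at least 2 endothelial genes, Cfd was 38.3% and 42.7% of the marker UMIs in the run A and run B mesentery libraries on chow and 40.4% and 32.3% in adipose on chow. On high fat diet it was 0 and 6.69% in mesentery and 2.22% and 9.59% in adipose. Cidec, whose share can rise because that of Cfd is lower, was at 6.38%, 2.83%, 0 and 3.25% in the same chow libraries and 25%, 12.7%, 13.3% and 19.2% on high fat diet. By level, Cidec in run B was at 104.6 CPM on chow and 19.8 CPM on high fat diet in mesentery, and at 193 and 11.4 CPM in adipose. Swapping diet within the 4 pairs of the same tissue and run, a comparison chosen after the values were seen, gave a two-sided exact permutation p = 0.125 for Cfd, Cidec and Car3, the smallest it allows, and p = 0.25 after Benjamini-Hochberg adjustment over the 6 markers. Cfd was lower on high fat diet in 4 of 4 pairs, and Cidec and Car3 were higher in 4 of 4. The 2 tissues of a run come from the same occasion, and same-run deviations in endothelial sums correlated at 0.567 to 0.720. The 4 pairs are therefore not independent, and the swap overstates the replication. Adig shares did not overlap either once the library with 4 marker UMIs was left out, at 0 to 2.13% on chow and 2.99 to 4.44% on high fat diet. The run A libraries rest on 47, 47, 4 and 45 marker UMIs. The 4 adipocyte-like barcodes of mesentery on high fat diet held 1 Cfd UMI and 21 Car3 UMIs in sum, with 542 to 1832 UMIs per barcode.

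Among all barcodes with at least 2 endothelial genes, whatever their number of adipocyte markers, Cfd was lower on high fat diet in the fit that accounted for the run and did not pass in the fit that did not. Cfd was at 3.72 CPM in run A and 1575 CPM in run B in mesentery on chow, and at 11.7 and 1921 CPM in adipose on chow. On high fat diet it was at 0 and 10.4 CPM in mesentery and at 0.550 and 5.72 CPM in adipose. Within each run and tissue the chow library was the higher one, and on chow the run B library was far above the run A library in both tissues. In edgeR's quasi-likelihood fit without a run term the log2 change on high fat diet was -7.97 (SE 3.58) in adipose and -7.06 (SE 3.42) in mesentery, with adjusted p = 1 in both. With the run as a replicate block it was -8.41 (SE 0.62, adjusted p = 0.00959) in adipose and -7.01 (SE 0.56, adjusted p = 0.0200) in mesentery, where 0.0295% and 0.118% of the 13542 genes tested were lower. Without mesentery on chow in run B the unblocked value in mesentery was 0.50, and without adipose on chow in run B that in adipose was -1.69.

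Car3 in endothelial barcodes was at 4.55 and 1465 CPM in mesentery and 12.3 and 2961 CPM in adipose on chow, and at 0.850 and 94.9 CPM and 12.1 and 32.9 CPM on high fat diet. Its log2 change was -5.94 (SE 3.36) in adipose and -3.88 (SE 3.05) in mesentery without the block and -4.36 (SE 1.83, edgeR adjusted p = 1) and -3.47 (SE 1.37, edgeR adjusted p = 0.463) with it, so it did not pass in any of these fits. None of the 88 listed adipocyte genes passed in endothelial barcodes in any of 5 contrasts (diet in each tissue, tissue on each diet, and the difference between the diet changes) without the block. No gene of all 13542 did (0% called), with 79 to 418 genes per contrast at an unadjusted p under 0.05 and 0 to 63 called by DESeq2. The genes with the smallest p were Cyp26b1 and Ccl5 for diet in adipose, Csf1 and Cyp26b1 for diet in mesentery, Csf1 and Gucy1a1 for tissue on chow, Bdkrb2 and Marco for tissue on high fat diet, and Csf1 and Adam19 for the difference between the diet changes. With the block, 1 of the 88 was lower on high fat diet in adipose and 3 in mesentery.

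Leukocyte barcodes, taken whatever their number of adipocyte markers, gave few Cfd counts. Cfd had 76 UMIs (103 CPM) in 137 leukocyte barcodes of mesentery on chow and 5 UMIs (37.8 CPM) in 23 of adipose on chow in run B, 1 UMI (0.537 CPM) and 3 UMIs (0.484 CPM) on high fat diet in run B, and 0 in all 4 run A libraries. The edgeR log2 change on high fat diet was -6.68 (SE 2.06, adjusted p = 1.00) in mesentery and -5.34 (SE 2.27, adjusted p = 1) in adipose, and with the replicate block the adjusted p was 0.0772 and 0.691. Of the 88 listed genes 33 had enough counts for the fit, and 0 were called in any contrast. Over all 6218 genes tested 0 were called (0%), with 41 to 222 per contrast at an unadjusted p under 0.05 and 0 to 19 called by DESeq2. Those with the smallest p, apart from immunoglobulin genes, were Cd226, Prpf19, Slpi, Dapl1, Pax5 and Hp over the 5 contrasts. With the block, 1 of the 33 was lower in mesentery than in adipose on chow, where 0.0482% of all genes were, and 1 was higher in mesentery than in adipose on high fat diet, where 0.273% were.

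Beyond the rule, the adipocyte-like barcodes carried RNA for droplet formation, lipid synthesis, hormones and amino acid metabolism. They were set beside the other barcodes without the 4 excluded genes of the same library, which had fewer than 3 markers, over the 2 chow libraries of run B. Values are log2 ratios of CPM + 10, averaged over the libraries. At least 2-fold, 596 of 6635 genes (8.98%) were higher in the adipocyte-like barcodes and 1084 (16.3%) lower, with a median of -0.24. All 12 of 12 droplet and lipolysis genes with enough UMIs (of 14 listed) were on the higher side, with a median of 2.46, and 17 of 19 synthesis genes, with a median of 3.38. The secreted list had 8 of 10 higher and 1 lower, amino acid and other metabolism 14 of 15 higher, and uptake, insulin and adrenergic signalling 12 of 15 higher. Because the rule used this contrast, nothing is read from these counts. They also do not carry over to the endothelial barcodes with fewer than 3 markers. Against those, the same log2 ratio was 5.84 for Plin1 and 5.95 for Dgat2, but 0.51 for Mgll. It was below 0 for Aqp7 (-0.63), Cd36 (-0.48), Cav1 (-0.39) and Cavin2 (-1.19).

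**Figure D4:**
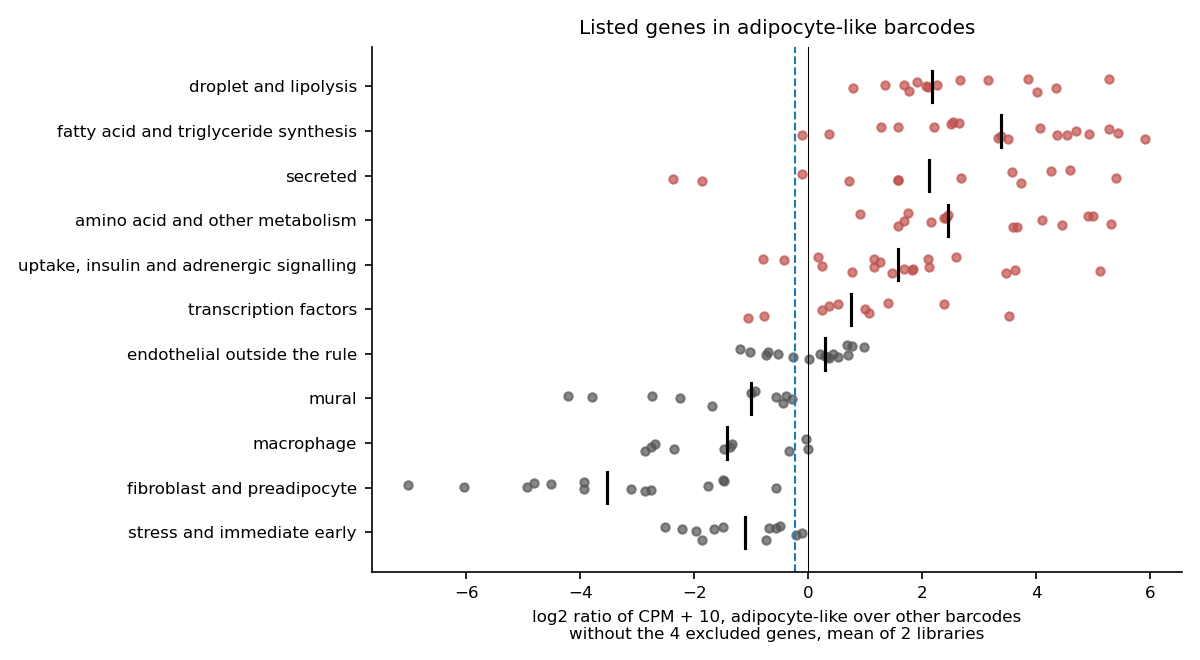
Log2 ratio of CPM + 10 (x axis) for every measured gene of 11 lists, adipocyte-like barcodes over the other barcodes without the 4 excluded genes, mean of the 2 chow libraries of run B; black ticks are medians over all listed genes and the dashed line is the median of -0.24 over 6635 genes. Adipocyte lists (red) lie mostly above 0 and the fibroblast list lies below 0.

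Fabp4, a fatty acid carrier of adipocytes and of capillary endothelium, was the most abundant gene, at 53597 (mesentery) and 54560 CPM (adipose) and with a UMI in every adipocyte-like barcode. It was also at 10329 and 31562 CPM in the endothelial barcodes. Dgat2, which makes the last bond of triglyceride, had the largest ratio outside the rule, 5.91, at 1128 and 1085 CPM against 5.94 and 11.7 CPM. The next were Hp (haptoglobin, 5.84), Thrsp (a regulator of lipid synthesis, 5.43), Nnat (neuronatin, 5.40), Cyp2e1 (5.30), Plin1 (perilipin 1, 5.28), Pck1 (which supplies glycerol phosphate, 5.27) and Adrb3 (the beta 3 adrenergic receptor, 5.11). Orm1, Scd1, Mrap, Angptl8, Me1, Rbp4, Fasn, Cdo1, Dbi, Gpd1, Fcor and Lipe completed the highest 20, between 5.00 and 4.35.

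Droplet genes other than Fabp4 were lower and reached many of the barcodes. G0s2, an inhibitor of adipose triglyceride lipase, was at 1413 and 1143 CPM. Pnpla2, that lipase, was at 1392 and 944 CPM, Mgll (monoglyceride lipase) at 1036 and 1145 CPM, and Plin1 at 837 and 785 CPM in 57.0% and 52.6% of barcodes. Mgll was also at 441 and 1316 CPM in the endothelial barcodes and at 1466 and 2221 CPM in those with markers of both kinds. Plin1 was at 2.31 and 6.64 CPM in the endothelial barcodes. Lipe, hormone-sensitive lipase, was at 571 and 570 CPM. Of the secreted products, Lpl (lipoprotein lipase) was at 2985 and 4145 CPM, Rbp4 (retinol binding protein) at 1323 and 1380 CPM and Lep (leptin) at 119 and 207 CPM.

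The defining transcription factors had a UMI in a minority of barcodes. Cebpa was at 347 and 295 CPM in 34.1% and 31.6% of barcodes, and Pparg at 226 and 245 CPM in 24.9% and 23.2%. Both were above the barcodes with neither marker set (25.3 and 13.7 CPM, and 22.3 and 58.6 CPM). Ebf1 was at 293 and 499 CPM against 786 and 554 CPM. Of the thermogenic list, Ucp1, the uncoupling protein of brown fat, had 0 UMIs in mesentery and 1 UMI in adipose (2.73 CPM), and Cox8b was at 157 and 76.4 CPM.

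The 10 genes with the lowest ratios were Igfbp6 (-7.45), Dcn (decorin, -7.01), Clec3b (-6.03), Apod (-5.83), Cd52 (a leukocyte gene), Col14a1, Timp2, Mfap5, Fn1 (fibronectin) and Penk. Dcn was at 23.0 and 49.1 CPM in the adipocyte-like barcodes against 8718 and 3723 CPM. Pdgfra and Clec3b, defining genes of fibroblasts and preadipocytes, had 0 UMIs in both libraries, while Gsn (gelsolin), which is on the fibroblast list and is also made by adipocytes, was at 1639 and 2776 CPM.

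Markers of other cell types were present at low levels in a minority. At least 3 genes of any other cell type list were found in 70 of 305 mesentery barcodes (23.0%) and 89 of 228 adipose barcodes (39.0%), against 67.9% and 80.0% of the barcodes with neither marker set. Endothelial genes outside the rule, such as Egfl7, Ptprb and Flt1, were the most frequent: all 17 had UMIs, 54 barcodes (17.7%) and 65 (28.5%) had at least 3, and their sum was 909 and 1609 CPM against 10458 and 10686 CPM in the endothelial barcodes. Fibroblast genes had at least 3 in 11 (3.61%) and 23 (10.1%) and summed to 1924 and 3300 CPM, with 9 of 14 detected in each library. Mural genes had at least 3 in 8 (2.62%) and 12 (5.26%), led by Rgs5 at 316 and 1083 CPM. Macrophage genes summed to 72.8 and 27.3 CPM, lymphatic endothelial genes to 5.74 and 13.6 CPM, mesothelial genes to 21.1 and 0 CPM, and epithelial genes were at 0 in both. T cell genes summed to 17.2 and 0 CPM, B cell genes to 274 and 434 CPM and glial genes to 3.83 and 10.9 CPM. Haemoglobin RNA came from few barcodes: 1 held 2601 of 2604 erythroid UMIs in mesentery and 1 held 5293 of 5308 in adipose.

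Genes of the stress and immediate early response were low. Their 12 genes summed to 209 and 295 CPM in the adipocyte-like barcodes, against 959 and 894 CPM in the endothelial and 863 and 621 CPM in the barcodes with neither marker set. Jun was at 36.4 and 95.5 CPM against 247 and 245 CPM in the endothelial barcodes.

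Mesentery and adipose on chow in run B differed in the RNA for fatty acid synthesis within the adipocyte-like barcodes. This comparison has 1 library on each side, so it has no test; ratios are given with 95% intervals that cover counting error only, and a gene counts as past 2-fold on the ratio of CPM with nothing added. Of 3035 genes with at least 40 UMIs, 78 (2.57%) were at least 2-fold higher in mesentery and 130 (4.28%) at least 2-fold higher in adipose, with a median log2 difference of -0.02. On CPM + 10 these counts were 57 and 94. Of 19 fatty acid and triglyceride synthesis genes, 9 were at least 2-fold higher in mesentery and 0 in adipose, 18 were above 0, and the median log2 difference was 0.95 (0.81 on CPM + 10). Of 12 droplet and lipolysis genes, 0 were past 2-fold in either direction, with a median of 0.01.

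The enzymes that turn citrate and acetate into fatty acids were all on the mesentery side. Acaca, acetyl-CoA carboxylase and the committed step, had 330 UMIs in mesentery against 50 in adipose, which is a CPM ratio of 4.63 (3.43 to 6.37). Acss2, which makes acetyl-CoA from acetate, had a ratio of 4.395 (2.82 to 7.16), and Acly, which makes it from citrate, 3.39 (2.68 to 4.34). Fasn, fatty acid synthase, was at 2184 (mesentery) and 671 CPM (adipose), a ratio of 3.26 (2.83 to 3.75), and had a UMI in 70.2% against 41.7% of barcodes. Me1, malic enzyme and a source of NADPH, had 3.74 (3.06 to 4.61), Elovl6, the elongase, 3.38 (1.75 to 7.18), and Slc25a1, the mitochondrial citrate carrier outside the list, 3.64 (2.71 to 4.99). Without the barcodes that held at least 3 genes of another cell type list, the log2 CPM ratio was 1.83 for Acaca against 2.21 with them, 1.36 for Acss2 against 2.14 and 1.44 for Fasn against 1.70.

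Other genes of the list had smaller ratios. Thrsp was at 5994 (mesentery) and 2531 CPM (adipose), a ratio of 2.37 (2.20 to 2.55), and Mlxipl, the glucose-responsive factor ChREBP, had 2.48 (1.32 to 5.01), with 28.8% of its UMIs in 1 barcode. Gpd1 was past 2-fold as well. Dgat2, the last step, had a ratio of 1.04 (0.913 to 1.18), and Gpam, an early step of triglyceride synthesis and the listed gene on the adipose side, was at 44.0 and 73.6 CPM, a ratio of 0.598 (0.328 to 1.08). Plin1, of the droplet list, had 1.07 (0.916 to 1.24).

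**Figure D5:**
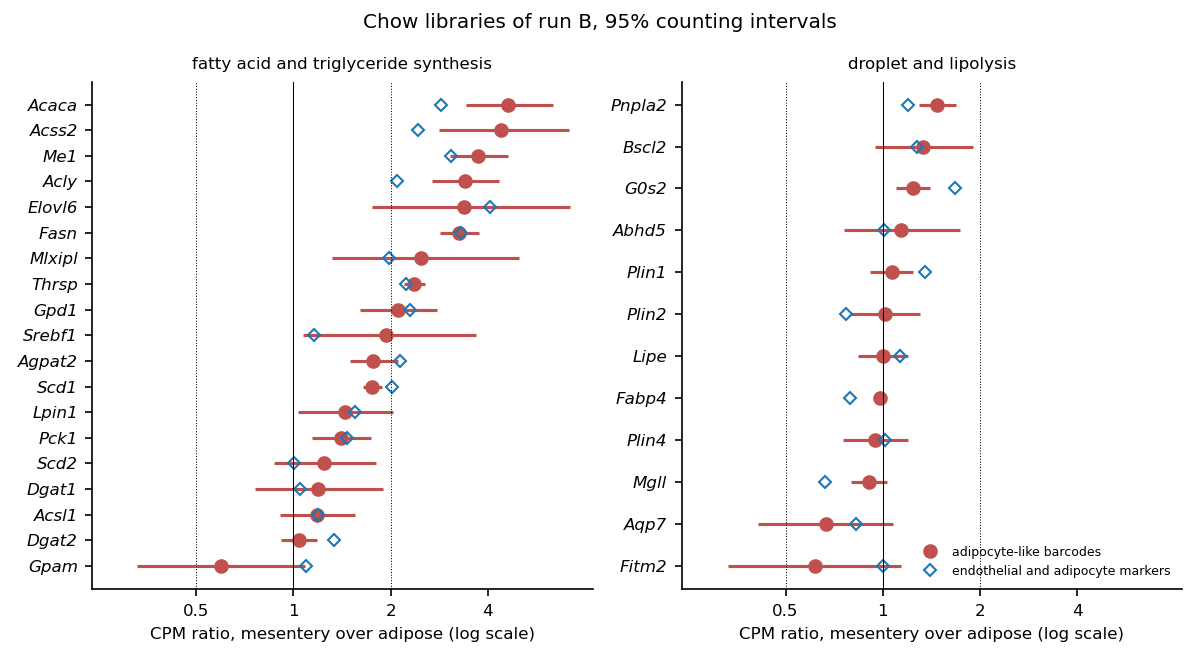
Ratio of CPM in mesentery over adipose (log axis) for the genes of 2 lists in the chow libraries of run B; red points with 95% counting intervals are the adipocyte-like barcodes, blue diamonds the barcodes with endothelial and adipocyte markers, and dotted lines mark 2-fold in each direction. Synthesis genes lie mostly to the right of 1, up to 4.63 for Acaca, and droplet genes lie around 1.

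The barcodes with markers of both kinds, from the same 2 libraries, showed the order too. There, 10 of the 19 synthesis genes were at least 2-fold higher in mesentery, with a median log2 CPM ratio of 1.01, and 19 of 19 were above 0. Fasn was at 565 (mesentery) and 171 CPM (adipose), and Acaca at 152 and 53.1 CPM. In the endothelial barcodes, with fewer than 3 adipocyte markers, 1 of 19 was at least 2-fold higher in mesentery and 1 in adipose, with a median of -0.01. The share of all genes past 2-fold was not counted in these 2 classes, so the counts have no background beside them.

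Other differences between the tissues were carried by single genes and, in part, by single barcodes. Of the 78 genes higher in mesentery 4 had over 25% of their UMIs in 1 barcode, and of the 130 higher in adipose 11 did. Of the remaining 74 and 119 genes, 63 and 91 had the same direction in the barcodes with markers of both kinds. Those barcodes come from the same libraries, and the share with the same direction over all genes was not counted, so nothing is read from this. Cd74 and Cd52, leukocyte genes near the top in mesentery, had 75.0% and 73.3% of theirs in 1 barcode. Outside these, and named for size after the values were seen, H2-Q10, a class Ib histocompatibility gene, had 97 UMIs in mesentery against 4 in adipose and a ratio of 17.0 (6.44 to 63.7). Bhlhe40 had 38 and 2 UMIs, Lypla1 41 and 4, and Pfkl, the glycolytic phosphofructokinase of liver and fat, 50 and 6. Ptger3, a prostaglandin E receptor, had 3.51 (1.76 to 7.76), and Cox8b 2.06 (1.32 to 3.28), which is not past 2-fold on CPM + 10.

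Sncg (gamma-synuclein) and Npr3 (the natriuretic peptide clearance receptor) were higher in adipose. Sncg was at 814 (mesentery) and 1991 CPM (adipose), and Npr3 at 220 and 521 CPM. Angptl4, an inhibitor of lipoprotein lipase, was at 99.6 and 229 CPM. In the endothelial barcodes Npr3 was at 22.0 and 122 CPM and Angptl4 at 44.8 and 162 CPM, also higher in adipose, while Sncg was at 168 and 153 CPM. Lep, at 119 and 207 CPM, had a ratio of 0.573 (0.403 to 0.812) and was not past 2-fold. Genes with large ratios in this direction, Col6a1 (8 and 42 UMIs), C4b (13 and 47), Aspn (31 and 97), Map1b (10 and 30), Adamts5 (72 and 197) and Rgs5 (165 and 397), include matrix and mural genes. Listed mural genes were at least 2-fold higher in adipose in 4 of 7 and endothelial genes outside the rule in 4 of 9. Without the barcodes that held at least 3 genes of another cell type list, 49 genes were higher in adipose in place of 130, and 53 in mesentery in place of 78.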

How the data were processed

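Single-cell RNA counts of 8 libraries were used as deposited by the authors: whole UMI counts per gene and barcode, made with Cell Ranger software 3.0.2 (run A) and 5.0.0 (run B), per the file headers. The submitters' processing notes name Seurat 4.3.0 and mm10. Library totals ran from 3461360 to 36779289 UMIs. Barcodes with fewer than 500 UMIs, fewer than 300 genes or over 10% mitochondrial UMIs were left out. Doublets were called with Scrublet in scanpy 1.11.5: its automatic limit marked 45 barcodes, so the rate expected from the number of barcodes was used, which marked 857, and none were removed. Members and lists were chosen with earlier results of these data known.

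Counts were summed per library and class of barcodes. Contrasts over libraries used edgeR 4.0.16 (quasi-likelihood test, TMM scaling, Benjamini-Hochberg adjustment, threshold 0.05) in R 4.3.3, with DESeq2 1.42.0 as an alternative. On simulated data (diet in adipose, endothelial sums, 13156 genes), 89.5% of 200 genes changed 4-fold were recovered and 7.73% of calls were false. The simulated counts had a fixed dispersion of 0.05 and no difference between runs. These rates therefore do not carry over to the real libraries, which differed by run. Run letters pair the libraries, since the labels say that the experiment was repeated. Deviations from group means correlated at 0.567 to 0.720 over 6 pairs in endothelial sums and 0.281 to 0.675 in leukocyte sums. Each library pools mice, so p-values measure the spread between pools. The planned edgeR fit within the adipocyte-like barcodes could not be made, because 2 libraries in 2 groups leave no residual degrees of freedom. Ratios between the tissues there use CPM with nothing added and genes with at least 40 UMIs, and ratios against other barcodes use CPM + 10. Shares of barcodes were compared by exact permutation tests, and marker shares by diet with the diet swapped within pairs.

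Genes were named by rule: the 6 markers and 4 excluded genes, the most abundant members of each list, the 20 highest and 10 lowest against the other barcodes without the 4 excluded genes, and the genes with the smallest p where none was called. Immunoglobulin genes were named only as a list. Alternatives were other limits on markers, UMIs and mitochondrial share, thinning to 500 UMIs, leaving out doublets or each library, no filter on low counts, the run as a block and DESeq2. Promoter windows came from RefSeq tables on GRCm38.p6 and positions from GENCODE vM21.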

Additional observations from a re-analysis of the deposited data

How the results depend on the processing

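Of 608 values recomputed under alternatives, 498 kept their direction and side of the threshold or stayed within the set range, 92 moved, 15 reversed and 3 newly passed the threshold; where no cause is named, it was not tested. The alternatives for the comparison of tissues were chosen after seeing the data. Adipocyte-like barcodes numbered 305 with at least 1000 UMIs, 250 with at most 5% mitochondrial UMIs, 888 with no mitochondrial limit and 889 when thinned to 500 UMIs. Genes at least 2-fold higher in mesentery numbered 151 with at least 2 markers and 125 after thinning. Those higher in adipose numbered 248 with at least 2 markers and 49 without barcodes holding 3 markers of another list. The log2 difference between tissues reversed to -5.86 for Cd52 and 0.29 for Car3 with at least 2 markers, to 0.11 for Mgp, 0.24 for Serping1 and 0.0317 for Car3 after thinning, and to -0.0157 for Cidec without barcodes holding another list.

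Leaving out each library in turn gave 232 to 537 barcodes, and share differences of -4.04 to 0 percentage points for diet in adipose, -5.88 to 0.0669 for diet in mesentery, -2.02 to 3.93 for tissue on chow (-1.065 without adipose on chow in run A) and 0 to 0.134 for tissue on high fat diet. In endothelial barcodes the log2 diet change of Cfd ran from -10.67 to -1.69 in adipose and from -16.09 to 0.50 in mesentery, and that of Car3 from -6.93 to 0.87 and from -9.65 to 3.28. In leukocyte barcodes Cfd ran from -6.59 to 2.63 in adipose and Car3 from -7.37 to 5.31 in adipose and from -8.68 to 0.54 in mesentery. The values above 0 came without the chow library of run B of that tissue. Cfd in leukocytes of mesentery was -6.52 with no filter on low counts, where edgeR's adjusted p was 0.00227.

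With the run as a replicate block, edgeR called 6 genes for diet in mesentery, 5 for tissue on chow, 17 for tissue on high fat diet and 1 for the difference between the diet changes in leukocyte barcodes. In endothelial barcodes it called 7 for diet in adipose, 23 for diet in mesentery and 47 for tissue on chow. The block gave Cfd -8.41 in adipose and -7.01 in mesentery in endothelial barcodes, and changed no other call of Cfd or Car3. Without the filter on low counts, leukocyte barcodes gave 15 genes for diet in adipose, 33 for diet in mesentery, 38 for tissue on chow, 55 for tissue on high fat diet and 6 for the difference between diet changes. DESeq2 called 19 for tissue on high fat diet in leukocyte barcodes, and 2, 5, 63 and 4 in endothelial barcodes for diet in adipose, diet in mesentery, tissue on chow and tissue on high fat diet. Leaving out libraries gave 0 to 10 for tissue on high fat diet in leukocyte barcodes, with 10 without mesentery on high fat diet in run B.

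The alternatives of the fit within the adipocyte-like barcodes were not run, since 2 libraries leave no residual degrees of freedom. The low number of UMIs per barcode limits what single genes can show, and run A libraries had too few UMIs of the 6 markers for firm shares.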
